A study of Mus musculus with 14 samples.

Results

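The microRNAs (miRNAs) described here are those of the imprinted Dlk1-Dio3 region on mouse chromosome 12. A miRNA was counted as a member when any of its non-control probes had an annotated position on chromosome 12 between 110700000 and 111100000 (build mm9) or between 109400000 and 109850000 (build GRCm38). This rule gave 114 members among the 1247 mouse miRNAs on the array, measured by 300 probes. It used map positions only and no measured value. Levels were read on 14 single-colour Agilent miRNA arrays, 10 of bone marrow and 4 of hypothalamus, taken 12 h after 0 or 8 Gy of gamma radiation. All mice were male C57BL/6 of 6 to 8 weeks, and each array held RNA pooled from 3 mice. In bone marrow the pretreatments were phosphate-buffered saline (PBS) as vehicle, injected into the abdomen (i.p.) or given by gavage (i.g.), and 3 drugs. Injected 0.5 h ahead of the radiation were amifostine (10 mg/kg) and CBLB502 (0.2 mg/kg), while nilestriol (150 mg/kg) was given by gavage 48 h ahead. In hypothalamus they were i.p. PBS and amifostine. Amifostine is a thiol radioprotector, CBLB502 a flagellin-derived agonist of Toll-like receptor 5, and nilestriol a long-acting oestrogen. Each combination of tissue, pretreatment and dose had 1 array, so tests compare arrays across combinations.

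The arrays lay on 3 slides. PBS arrays of either tissue shared slide 1 with CBLB502, slide 2 carried the other marrow drugs, and slide 3, scanned separately, carried amifostine in hypothalamus. Amifostine and nilestriol therefore cannot be told apart from the slide, while both doses were on every slide. Per array 332 to 403 miRNAs were detected in marrow and 478 to 582 in hypothalamus. The tissues matched their labels by marker miRNAs: 11 of 11 neuronal miRNAs were detected on all hypothalamus arrays and 10 of them on no marrow array, and 3 of 3 erythroid and 3 of 3 myeloid miRNAs were detected on all marrow arrays and were lower in hypothalamus. Of the other lists, higher in hypothalamus were 3 of 3 oligodendrocyte, 2 of 3 choroid plexus, 1 of 5 pituitary and epithelial and 2 of 4 stromal and endothelial miRNAs, and lower were 2 of 2 lymphoid and 1 of 4 stromal and endothelial miRNAs, with 0 of 3 muscle miRNAs passing either way. In pooled tissue, fewer expressing cells and less RNA per cell cannot be told apart.

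The Dlk1-Dio3 region carries the protein-coding genes Dlk1, Rtl1 and Dio3, which are expressed from the paternal chromosome, and a set of long non-coding RNAs, Meg3, Rian and Mirg, which are expressed from the maternal one. Most of its miRNAs are cut from the maternal non-coding transcripts, and most of the group near Rtl1 lies antisense to that gene. The miRNAs of this region are known for their abundance in brain and placenta, and those of the long distal group are known to be processed from a common precursor transcript in neurons. A hairpin precursor yields a 5p and a 3p arm, and the seed, bases 2 to 8 of the mature miRNA, governs target pairing.

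Of the 114 members, 110 had a mature sequence in RefSeq (GRCm38.p6), 107 by name and 3 by probe sequence and position. No sequence was held for miR-376c-3p, miR-487b-3p, miR-539-3p and miR-485-5p. Of the 110, 104 lie on the plus strand and 6 on the minus strand: both arms of miR-3544, miR-3071 and miR-299b. For these 6 the array's annotated probe positions fall outside the RefSeq mature interval, and the miR-299b-5p probes, placed on the plus strand, also match miR-299a-5p. The members on which the marrow results turn are the 11 that were detected on at least 5 of the 10 marrow arrays, and their mature sequences follow 5′ to 3′ in map order with the seed in capitals.
miR-1906: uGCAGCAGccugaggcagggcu
miR-770-3p: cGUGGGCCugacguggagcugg
miR-3544-3p: aCUCCUGCaugacgccguuccc
miR-3070b-3p: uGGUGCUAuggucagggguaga
miR-433-5p: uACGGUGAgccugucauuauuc
miR-432: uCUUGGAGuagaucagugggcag
miR-341-3p: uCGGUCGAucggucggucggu
miR-370-3p: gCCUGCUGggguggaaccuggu
miR-494-3p: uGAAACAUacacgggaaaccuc
miR-134-5p: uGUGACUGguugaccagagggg
miR-3072-5p: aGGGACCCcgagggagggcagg

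No seed occurs more than once among these 11. The GC content of the 11 sequences ran from 45.5 to 77.3% with a median of 63.6%. Members detected on all 4 hypothalamus arrays and on no marrow array had a median of 45.5% (50 with a sequence, range 23.8 to 68.2%), and the 38 never detected had a median of 50%. Among all array miRNAs matched by name to RefSeq, the median was 54.5% for the 290 detected on at least 5 marrow arrays and 50% for all 1017. The members with a large tissue difference are represented by the following, again with the seed in capitals.
miR-127-3p: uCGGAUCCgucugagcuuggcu
miR-434-3p: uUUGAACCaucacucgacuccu
miR-382-5p: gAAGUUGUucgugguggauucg
miR-300-3p: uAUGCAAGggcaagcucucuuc
miR-410-3p: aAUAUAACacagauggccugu
miR-495-3p: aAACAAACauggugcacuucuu
miR-154-5p: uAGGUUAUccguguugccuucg
miR-376a-3p: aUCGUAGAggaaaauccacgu
miR-376b-3p: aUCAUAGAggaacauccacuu

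Seeds were shared by pairs of members at most. The 110 sequences held 101 distinct seeds, with 9 seeds shared by 2 members each. A pair with both partners detected on all 4 hypothalamus arrays was miR-379-3p and miR-411-3p, and a pair with a single detected partner was miR-376b-5p (detected on all 4) and miR-376c-5p (on none), which are printed here because their letters are near-identical over their whole length.
miR-379-3p: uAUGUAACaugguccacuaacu
miR-411-3p: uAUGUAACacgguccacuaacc
miR-376b-5p: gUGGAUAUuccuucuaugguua
miR-376c-5p: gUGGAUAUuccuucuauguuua

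A run of GGUU at bases 2 to 5, chosen after the sequences had been seen and read on the mature strand only, was held by 8 of the 110 members (7.27%) and by 5 of the 1569 other mature miRNAs in the RefSeq table (0.319%). All 8 lie in the distal group, and 7 are 5p arms. Of the 8, only miR-409-5p was detected on all 4 hypothalamus arrays, and miR-758-5p was detected on 2. miR-494-5p and miR-410-5p, which share a whole seed, were not detected on any array.
miR-494-5p: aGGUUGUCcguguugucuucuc
miR-410-5p: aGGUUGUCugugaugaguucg
miR-409-5p: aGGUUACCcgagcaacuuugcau

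The members fall into 5 groups along the chromosome when a gap of more than 10 kb separates groups. The first member, miR-1906, forms a group of its own and lies inside the Meg3 interval (RefSeq, GRCm38.p6, chr12:109540996-109571729), as do both arms of miR-770, and its probes also match a position on chromosome X. The second group, from miR-770 to miR-3071, spans 31.6 kb with 30 members, of which 28 lie inside the Rtl1 interval (chr12:109564900-109604418). The third has the 6 arms of miR-341, miR-1188 and miR-370 inside Rian (chr12:109603945-109661716). miR-882 stands alone, and the distal group, from miR-379 to miR-3072, spans 38.9 kb with 76 members, 19 of them inside Mirg (chr12:109734981-109749458) and the others in no interval of these genes.

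Most members were hypothalamus miRNAs. A miRNA was called detected where the scanner software found at least 1 probe signal above 3 times its error. On all 4 hypothalamus arrays 65 of 114 members were detected, against 37.8% of all 1247 miRNAs; 9 members were detected on 1 to 3 arrays and 40 on none. In marrow 6 members were detected on all 10 arrays and 5 on 5 to 9 arrays, and these 11 of 114 compare with 29.8% of all miRNAs detected on at least 5 marrow arrays. Among the 11, miR-433-5p had unlike probes in marrow. Its probes of 18, 19, 20 and 21 bases had marrow medians of -1.0, 0.06, 4.72 and 17.2 units, so its marrow signal came mainly from the longest. A further 5 members (miR-1188-5p, miR-3070a-3p, miR-882, miR-1188-3p and miR-300-3p) were detected on 1 to 4 marrow arrays, and 98 on none. Among those 98 the highest signal on any marrow array was 5.50 units.

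Detection on all 4 hypothalamus arrays and no marrow array was found for 53 members (46.5%), against 10.8% of all miRNAs. The reverse was rare: only miR-3544-3p was detected in marrow and on no hypothalamus array, and 39 members were detected in neither tissue. For miR-3544-3p the tissues differed in the detection call and hardly in signal. It had 4.46 to 12.1 units in marrow (median 9.73) and 4.02 to 11.9 in hypothalamus (median 9.08). Per array, 65 to 74 members were detected in hypothalamus and 6 to 15 in marrow. The lowest count, 6, was on the marrow PBS i.p. array at 8 Gy, which also had the fewest detected miRNAs of all (332), and the highest, 15, was on the marrow amifostine array at 0 Gy, which had the most in that tissue (403).

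**Figure D1:**
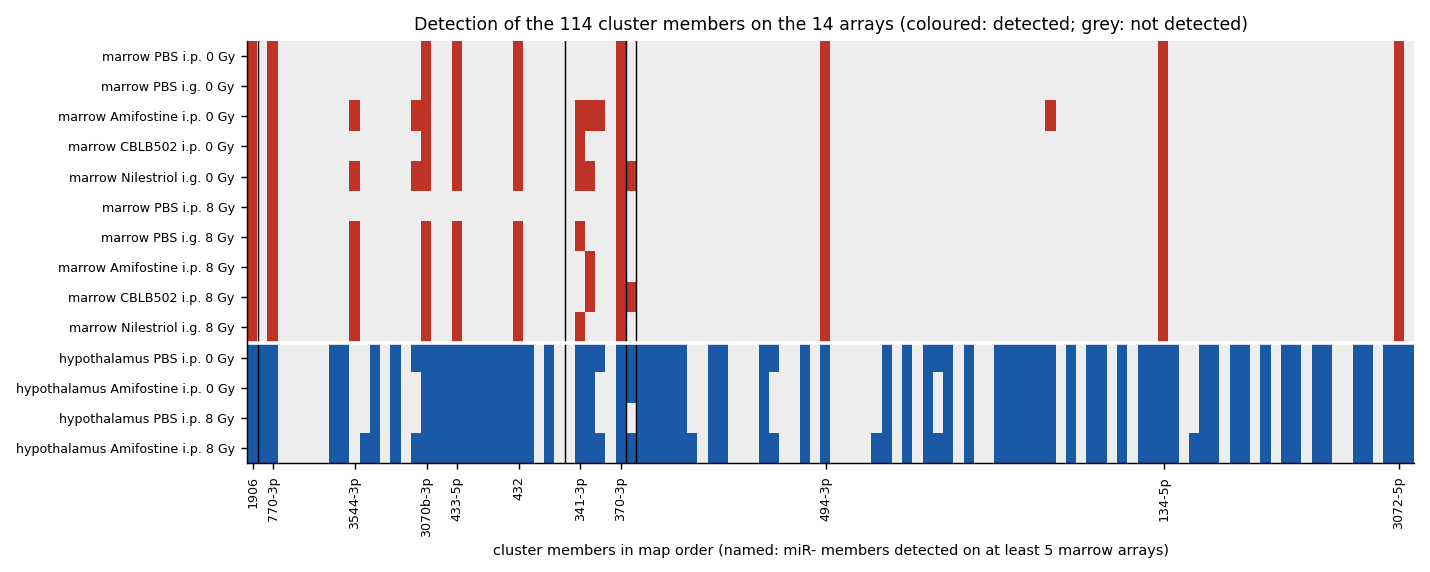
Detection of each of the 114 members (columns, in map order) on each of the 14 arrays (rows); red is detected in marrow, blue detected in hypothalamus, grey not detected, and black lines separate the 5 groups along the chromosome. Marrow arrays show 6 to 15 scattered members and hypothalamus arrays 65 to 74 in nearly the same pattern on all 4.

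Along the chromosome, detection on all 4 hypothalamus arrays was spread over the large groups in like shares: 18 of 30 members (60.0%) of the second group and 43 of 76 (56.6%) of the distal group. In the distal group 26 of 38 3p arms (68.4%) and 17 of 37 5p arms (45.9%) were detected on all 4, and in the second group 10 of 15 3p arms and 7 of 14 5p arms. The 11 members seen in marrow were scattered over 4 of the groups, with 1, 5, 2 and 3 members in the order of the map. In the distal group these were 3 of 76.

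The tissue difference was tested with limma on 8 arrays, the 4 from hypothalamus and their 4 marrow counterparts, with the matched condition as a block. Differences below are log2 ± SE of scaled signals, hypothalamus minus marrow. The scale of each array was the 75th percentile of a restricted set, the 277 miRNAs that all 8 arrays detected. P-values were adjusted by the Benjamini-Hochberg method over all miRNAs tested. Without any filter on detection, 49 of 114 members were higher in hypothalamus (43.0%) and 0 lower, against 13.9% of 1247 miRNAs higher and 3.53% lower. With the filter used for the values below (detection on at least 4 of the 8 arrays), 65 members were tested and 52 passed as higher, against 40.2% of 530 tested miRNAs, and 0 passed as lower, against 15.8% (56% of the 530 in either direction). Of these 65 members, 53 passed the filter through hypothalamus alone, so that their count is a description. Scaling over all miRNAs moved the median of all differences from 0.38 to -0.62 and gave 45 members higher and 7 lower, against 25.3% and 45.7% of the 530. Quantile normalization gave 44 and 5, against 27.9% and 39.8%.

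The members with the largest fitted differences were not detected on the marrow arrays or barely so. miR-127-3p, which lies antisense to Rtl1, had signals of 4038 and 4098 units on the hypothalamus PBS arrays at 0 and 8 Gy and of 3736 and 3857 on the amifostine arrays. Its highest marrow signal was 1.02 units, so its level was at least 191-fold higher in hypothalamus. Its neighbour miR-434-3p had 3098 and 3101 units on the PBS arrays and 3134 and 3131 on the amifostine arrays at 0 and 8 Gy. The bound for miR-434-3p was at least 152-fold. These bounds set the mean of the 4 hypothalamus arrays against the mean, over the 4 matched marrow arrays, of the lowest signal well above background or the member's own signal where higher, as do those that follow.

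In the distal group, miR-382-5p had 1905, 1870, 1755 and 1755 units on the hypothalamus PBS arrays at 0 and 8 Gy and the amifostine arrays at 0 and 8 Gy, and was at least 88.5-fold higher. All 4 values stood within a narrow range and far above every marrow array, where its signals were negative after background subtraction. Also with no marrow detection were, in the same group, miR-410-3p (at least 56.7-fold), miR-495-3p (55.8-fold), miR-487b-3p (49.5-fold), miR-154-5p (45.7-fold), miR-376a-3p (42.3-fold), miR-376b-3p (27.7-fold) and miR-329-3p (21.5-fold) and, near Rtl1, miR-136-5p (21.8-fold). Each was higher in all 4 matched pairs of arrays.

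miR-300-3p, detected on all 4 hypothalamus arrays, had 1551 and 1442 units on the PBS arrays at 0 and 8 Gy and 1447 and 1491 on the amifostine arrays. In marrow its 10 signals ran from 3.04 to 8.70 units, with a median of 5.74, and it was called detected on the amifostine array at 0 Gy alone. Its fitted difference was 7.29 ± 0.13 (limma, adjusted p = 8.71e-06), with the marrow side mostly at the floor. Over the 42 members with no detection on the matched marrow arrays and a bound above 1-fold, the bounds ran from 1.12- to 191-fold, and 21 were at least 10-fold. These counts describe the members and have no share over all miRNAs beside them.

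Of the 12 members with detection on at least 1 matched marrow array, 6 were higher in hypothalamus and 0 lower. Over all 530 miRNAs tested the shares were 40.2% and 15.8%. Those shares include miRNAs with no marrow detection, and the share among miRNAs with some was not counted. For miR-300-3p, miR-433-5p, miR-341-3p and miR-1188-5p part of the marrow side lay at the floor, so that their fitted differences depend on it. Beside miR-300-3p the 6 were miR-341-3p (3.93 ± 0.25), miR-433-5p (3.33 ± 0.14), miR-770-3p (1.27 ± 0.16), miR-134-5p (0.67 ± 0.16) and miR-1188-5p (0.62 ± 0.17). The smaller of these values depend on the scaling. With scaling over all miRNAs the difference of miR-370-3p, detected on all 14 arrays, moved from 0.50 to -0.92. When only miRNAs detected on all 8 arrays were tested, miR-134-5p did not pass (limma, adjusted p = 0.055). miR-134-5p, known in neurons for its effect on dendritic spine size, was on all 14 arrays, with 17.4 to 43.9 units in marrow and 46.7 to 78.0 in hypothalamus, with no overlap. miR-770-3p was also on all 14, with 16.2 to 40.8 units in marrow and 64.5 to 101 in hypothalamus, and these ranges did not overlap.

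miR-370-3p had a median of 142 units in marrow (lowest 90.0, highest 284) and of 247 in hypothalamus (205 to 302), and the ranges overlapped. Its difference of 0.50 ± 0.16 did not pass (limma, adjusted p = 0.053; 0.011 to 0.22 over the alternatives). It passed as higher in 3 of 21 alternatives, with values up to 1.14, and its sign turned to -0.92 with scaling over all miRNAs (adjusted p = 0.011) and to -0.35 with quantile normalization and with the deposited value table. miR-494-3p had marrow signals from 13217 to 58108 units with a median of 20758, and hypothalamus signals of 25387, 12946, 9962 and 28392 on PBS at 0 and 8 Gy and amifostine at 0 and 8 Gy. The ranges of the 2 tissues overlapped, and the lowest value was in hypothalamus and the highest in marrow. Its difference was -0.91 ± 0.33 (limma, adjusted p = 0.069), passed as lower in hypothalamus in 7 of 21 alternatives, and ran from -2.33 to -0.27 over them. The other members with a value below 0 that did not pass were miR-3070b-3p (-0.74 ± 0.40), miR-1906 (-0.49 ± 0.20), miR-3072-5p (-0.31 ± 0.20) and miR-432 (-0.02 ± 0.34).

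**Figure D2:**
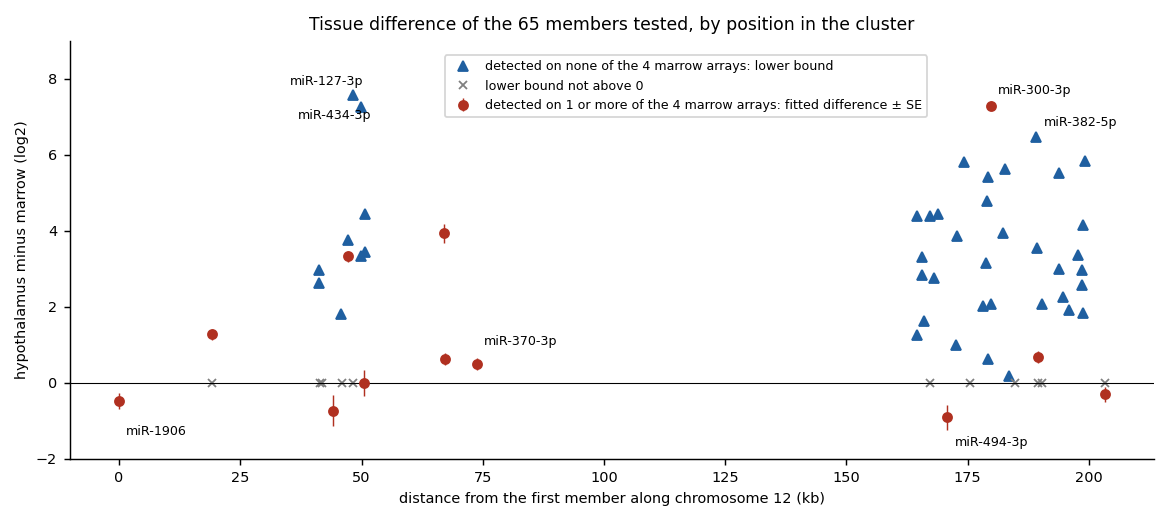
Hypothalamus minus marrow (log2) for the 65 members tested, against distance from the first member in kb; red points are fitted differences ± SE of the 12 members with some detection on the matched marrow arrays, blue triangles are lower bounds for members with none, and crosses are members whose bound is not above 0. High bounds occur in both large groups, and miR-494-3p at -0.91 lies among neighbours with bounds above 0.

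miR-494-3p stood apart from the hairpins around it in marrow. The precursor, printed with both mature arms in capitals, lies at chr12:109715318-109715402 on the plus strand.
Mir494: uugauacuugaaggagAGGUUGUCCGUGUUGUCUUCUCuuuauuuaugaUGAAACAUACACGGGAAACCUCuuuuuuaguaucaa

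The 3p arm was detected on all 10 marrow arrays, and the 5p arm of the same hairpin on none of the 14, with a highest marrow signal of -0.02 units. The next hairpin upstream, miR-329, lies 1.83 kb away by its 3p probe, and miR-329-3p had 415 to 479 units in hypothalamus and no more than 2.52 in marrow. Downstream, the nearest hairpins were miR-679 and miR-1193, at 0.22 to 0.38 kb, and neither arm of either was detected on any of the 14 arrays. At 1.77 kb miR-666-3p had 37.7 to 43.4 units in hypothalamus and no more than -0.77 in marrow. Farther on, miR-543-3p at 1.93 kb had 279 to 325 units in hypothalamus and at most 1.0 in marrow. For miR-495-3p at 3.42 kb the values were 1075 to 1298 and at most 0.65.

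miR-370-3p, of the Rian interval, was detected on all 14 arrays, while its 5p arm was detected on none. Its precursor lies at chr12:109618258-109618336 on the plus strand.
Mir370: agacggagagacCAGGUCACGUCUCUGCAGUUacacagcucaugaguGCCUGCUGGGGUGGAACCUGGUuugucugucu

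Over all 53 hairpins with a probe for each arm, both arms were detected on all 4 hypothalamus arrays in 20, the 3p arm alone in 17, the 5p arm alone in 4 and neither in 12. In 17 hairpins an arm was detected on all 4 and its partner on no hypothalamus array. Among them were miR-494, miR-370, miR-341, miR-495, miR-410, miR-381 and miR-329, each by its 3p arm, and miR-539, miR-544 and miR-541, each by its 5p arm. In 2 of the 20 hairpins with both arms detected, an arm lay at the floor on all 4 arrays (miR-770-5p and miR-485-3p). In the other 18 the 5p minus 3p difference moved by a median of 0.25 (log2) over the 4 arrays, with a smallest range of 0.11 for miR-434 and a largest of 0.94 for miR-3072. It moved by more than 1 in 0 of the 18. After miR-3072 the widest was miR-134 at 0.81, and in miR-3072 and miR-134 the 5p arm is the one also detected on every marrow array.

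Irradiation was compared in bone marrow on all 10 arrays with the pretreatment arm as a block. A member was tested when detected on at least 5 of the 10 arrays, which left 11 of 114. At 8 Gy 1 of these 11 passed as higher, against 9.16% of the 371 miRNAs tested, and 0 as lower, against 3.5% (12.7% in either direction). The median of the 11 was -0.20, and that of all 371 was 0.09. Signals here are scaled log2 values. A value of 0 marks the 75th percentile of a restricted set, the 296 miRNAs that all 10 arrays detected.

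miR-3544-3p, a minus-strand member not detected on any hypothalamus array, was the member that passed. At 0 Gy it stood at -5.31, -5.15, -4.99, -4.99 and -5.07 in the arms PBS i.p., i.g. PBS, amifostine, CBLB502 and nilestriol, and at 8 Gy at -4.96, -4.90, -4.50, -4.61 and -4.54. The PBS i.p. value at 0 Gy is the floor itself, so that the difference in this arm depends on it. The 8 Gy arrays were higher in all 5 arms, a pattern held by 20.2% of the 371 miRNAs. Every 8 Gy value lay above every 0 Gy value, a separation that was not counted over the 371. The difference was 0.40 ± 0.09 (limma, adjusted p = 0.041; 0.044 to 1.0 over the alternatives). Its signals were dim, from 4.46 to 12.1 units, with detection on 2 of 5 arrays at 0 Gy and 4 of 5 at 8 Gy, and the call was lost in 24 of 27 alternatives, among them leaving out any 1 PBS, amifostine or CBLB502 array.

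miR-370-3p stood at -1.39, -1.18, -0.64, -0.68 and -0.22 at 0 Gy in the same order of arms and at -1.53, -1.26, -1.31, -0.94 and -1.05 at 8 Gy. It was lower at 8 Gy in all 5 arms, by 0.08 in PBS i.g. and by 0.83 in nilestriol at the extremes, and 11.1% of the 371 miRNAs were lower in all 5. The difference of -0.40 ± 0.15 did not pass (limma, adjusted p = 0.11; 0.081 to 0.40 over the alternatives). On the vehicle arrays alone it was -0.09 ± 0.08 (limma, adjusted p = 0.47), where 0 of 362 tested miRNAs passed (0%) and 107 had an unadjusted p below 0.05.

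miR-494-3p stood at 6.39, 6.27, 6.98, 6.94 and 5.92 at 0 Gy and at 5.60, 5.95, 6.39, 7.73 and 6.11 at 8 Gy in that same order of arms. It was lower at 8 Gy in 3 arms, by 0.79, 0.32 and 0.60, and higher in the CBLB502 arm by 0.78 and the nilestriol arm by 0.19. The doses overlapped, with a difference of -0.14 ± 0.24 (limma, adjusted p = 0.66; 0.25 to 0.98 over the alternatives). In the vehicle arms alone it was -0.54 ± 0.19 (limma, adjusted p = 0.23).

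Of the others, miR-1906 was lower at 8 Gy in all 5 arms (-0.39 ± 0.12, limma, adjusted p = 0.077). miR-341-3p (-0.50 ± 0.20), miR-432 (-0.40 ± 0.20), miR-770-3p (-0.26 ± 0.14), miR-3072-5p (-0.20 ± 0.11), miR-134-5p (-0.11 ± 0.13) and miR-433-5p (-0.09 ± 0.11) had values below 0, and miR-3070b-3p was at 0.01 ± 0.30. None of these 8 passed. miR-341-3p was detected on 5 of the 10 arrays and lay at the floor on both PBS i.p. arrays and on the amifostine array at 8 Gy. Its largest arm difference was -1.34, in amifostine. miR-3070b-3p varied most between arms, with -0.90 in PBS i.p. and 1.23 in the amifostine arm.

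**Figure D3:**
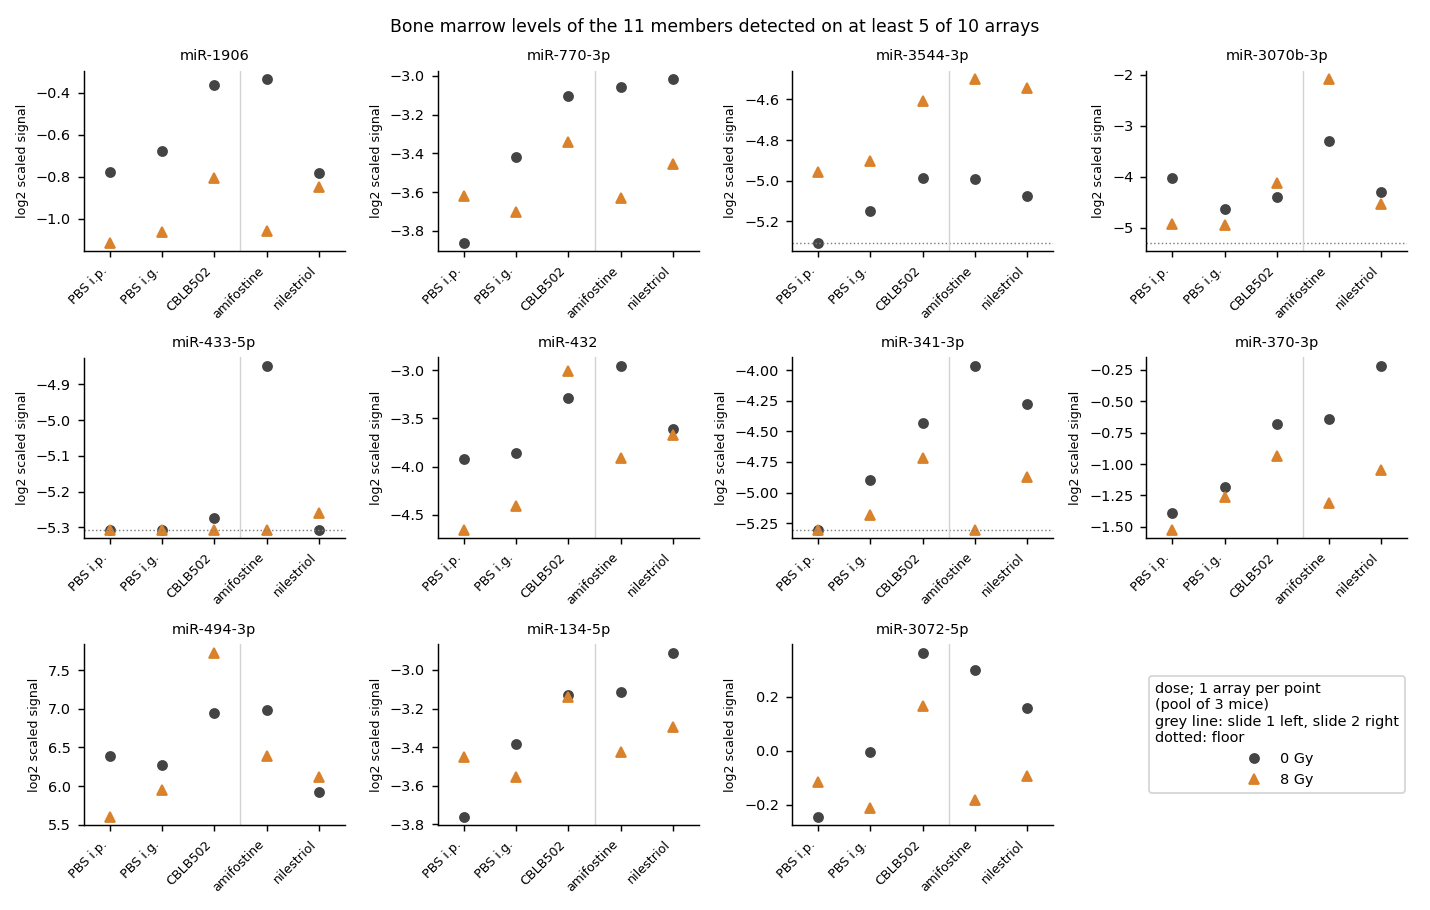
Scaled log2 signal of the 11 members detected on at least 5 of 10 marrow arrays, by pretreatment; grey circles are 0 Gy and orange triangles 8 Gy, each 1 array of 3 pooled mice, the grey line separates slides 1 and 2, and the dotted line is the floor. CBLB502 gives the highest miR-494-3p value, 7.73 at 8 Gy, and miR-3544-3p is higher at 8 Gy in all 5 arms.

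Each drug was compared with the 4 marrow PBS arrays, with dose as a covariate. The 3 comparisons share these PBS arrays, so their values are given side by side and are not independent. CBLB502, the only drug on the same slide as the PBS arrays, had 2 of the 11 members higher, against 5.39% of 371 miRNAs, and 0 lower, against 6.74%. With scaling over all miRNAs the same 2 members passed as higher, and the shares of all 371 were 3.5% higher and 18.9% lower. The median of the 11 was 0.41 and that of all 371 was 0.15.

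miR-494-3p was higher on both CBLB502 arrays. Its signals were 19684 and 13217 units on the PBS i.p. arrays and 24725 and 21549 on the PBS i.g. arrays at 0 and 8 Gy, and 35827 and 58108 on the CBLB502 arrays. Both CBLB502 values lay above all 4 PBS values. The difference was 1.28 ± 0.31 (limma, adjusted p = 0.045; 0.018 to 0.32 over the alternatives), and its 2 probes gave 1.25 and 1.34. Without the CBLB502 array at 8 Gy it was 0.71 (adjusted p = 0.32), and without the CBLB502 array at 0 Gy it was 1.88 (adjusted p = 0.037). Leaving out any 1 of the 4 PBS arrays also ended the call (adjusted p from 0.063 to 0.11), as did leaving out either amifostine array (0.054 and 0.053 without those at 0 and 8 Gy). It was positive in all 22 alternatives and lost the call in 14 of them. The 2 probes of miR-494-3p, of 14 and 15 bases, are nested, so their values are not independent.

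miR-432, antisense to Rtl1, was the other member that passed. It had 15.6 and 10.8 units on the PBS i.p. arrays and 22.1 and 16.4 on the PBS i.g. arrays at 0 and 8 Gy, and 29.8 and 34.2 on the CBLB502 arrays, with no overlap. The difference was 1.06 ± 0.26 (limma, adjusted p = 0.045; 0.023 to 0.46 over the alternatives), and its 3 probes each gave at least 1.02. With normexp background correction it was 0.26 (adjusted p = 0.23), and without the CBLB502 array at 8 Gy 0.64 (adjusted p = 0.32). Without any 1 of the PBS arrays the adjusted p again ran from 0.063 to 0.11. It was positive in all 21 alternatives and lost the call in 12. The 3 probes of miR-432, of 14 to 16 bases, are nested as well.

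The other 9 members did not pass under CBLB502. miR-370-3p was at 0.53 ± 0.20 (limma, adjusted p = 0.094), with 90.0 and 94.7 units on PBS i.p., 141 and 145 on PBS i.g. and 181 and 143 on CBLB502 at 0 and 8 Gy. Its raw signals overlapped, while its scaled values lay above both PBS arrays of the same dose at both doses. That pattern was held by 9 of the 11 members and by 34.5% of all 371 miRNAs. On slide 1 alone 5 of the 11 members passed as higher, against 16.4% of the 371 miRNAs: miR-432, miR-370-3p (0.54, adjusted p = 0.041), miR-341-3p, miR-1906 and miR-3072-5p, while miR-494-3p was at 1.30 with an adjusted p of 0.051 by limma.

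Under amifostine 0 of the 11 passed, against 0% of all 371 miRNAs tested (76 with an unadjusted p below 0.05). miR-3070b-3p was the member farthest from vehicle, with 31.0 and 54.8 units on the amifostine arrays at 0 and 8 Gy and 14.5, 8.99, 12.9 and 11.2 on PBS i.p. and PBS i.g. at 0 and 8 Gy. Both amifostine values lay above all 4 PBS values, and the difference was 1.94 ± 0.39 (limma, adjusted p = 0.13; 0.041 to 0.69 over the alternatives). miR-432 was at 0.78 ± 0.26 (adjusted p = 0.18), miR-494-3p at 0.63 ± 0.31 (adjusted p = 0.29) and miR-370-3p at 0.36 ± 0.20 (adjusted p = 0.32), all by limma. Values above both PBS arrays of the dose at both doses were found for 6 of 11 members and 21.6% of all 371.

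Under nilestriol 0 of the 11 passed, again against 0% of 371 (95 with an unadjusted p below 0.05). miR-370-3p had 284 and 136 units on the nilestriol arrays at 0 and 8 Gy, and its difference was 0.71 ± 0.20 (limma, adjusted p = 0.18). Without the nilestriol array at 8 Gy it was 0.98 (adjusted p = 0.034) and without that at 0 Gy 0.46 (adjusted p = 0.68), and it did not pass in 20 of 21 alternatives. miR-494-3p, with 19967 and 19483 units, was at -0.04 ± 0.31 (limma, adjusted p = 0.95), inside the PBS range. Values above both PBS arrays of the dose at both doses were found for 7 of 11 members and 22.9% of all 371. Of the 11 members, 11 had a value above 0 against vehicle under CBLB502, 11 under amifostine and 10 under nilestriol. The medians of all 371 miRNAs were also above 0, at 0.15, 0.05 and 0.02 in that order. How many of the 371 were above 0 was not counted. All these values are against the same PBS arrays. Their PBS i.p. pair held the lowest of the 10 scaled values, ties at the floor included, for 10 of the 11 members.

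**Figure D4:**
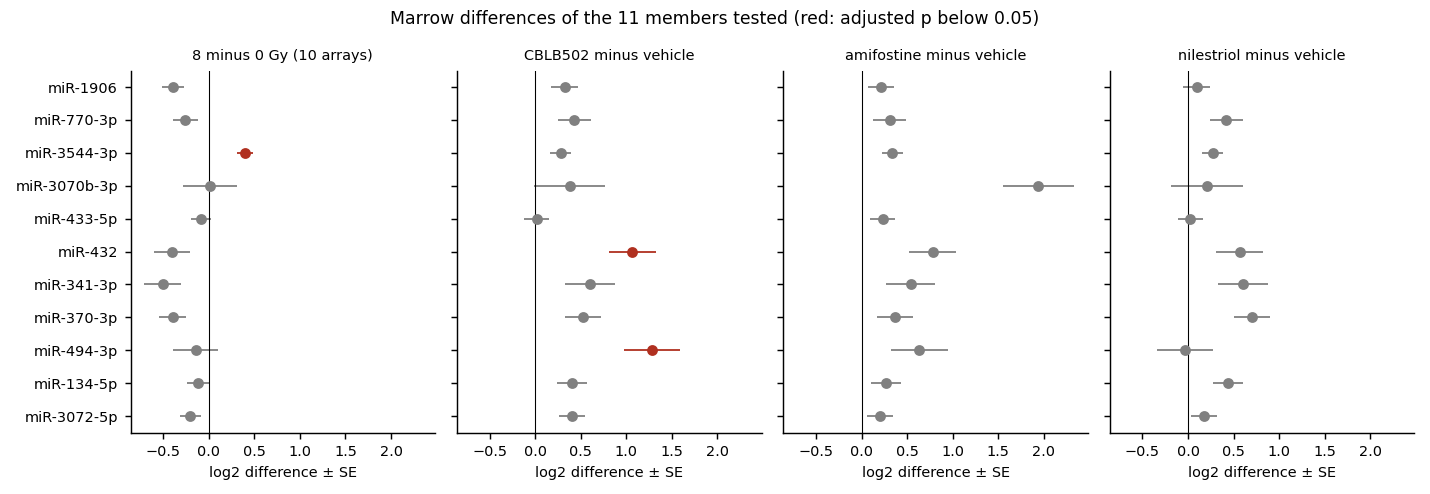
Log2 differences ± SE of the 11 members tested in marrow for 8 minus 0 Gy and for each drug minus the 4 shared PBS arrays, on a common axis; red points passed at an adjusted p of 0.05. miR-3544-3p passed for dose at 0.40 and miR-432 and miR-494-3p for CBLB502 at 1.06 and 1.28.

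In hypothalamus, dose and amifostine were fitted together on the 4 arrays, and 70 members detected on at least 2 of them were tested. For 8 against 0 Gy 0 of the 70 passed, against 0% of 544 miRNAs (0 with an unadjusted p below 0.05). The median of the 70 was -0.13 and that of all 544 was -0.08. The lowest values were those of miR-544-5p (-0.52 ± 0.22), miR-380-5p (-0.47 ± 0.17), miR-154-3p (-0.35 ± 0.19), miR-376a-5p (-0.32 ± 0.21), miR-377-3p (-0.32 ± 0.17) and miR-369-3p (-0.31 ± 0.23). On the PBS array at 8 Gy miR-544-5p lay at the floor of -5.28. miR-380-5p stood near the floor at 8 Gy, at -4.97 on PBS and -5.17 on amifostine. Over the alternatives miR-544-5p ran from -0.52 to 0.05 and miR-380-5p from -0.47 to -0.02. The highest among members detected on all 4 arrays were miR-494-3p (0.17 ± 0.67), miR-432 (0.09 ± 0.70), miR-3070b-3p (0.07 ± 0.39) and miR-3072-5p (0.01 ± 0.49), with miR-770-5p and miR-485-3p at the floor on all 4. miR-127-3p was at -0.07 ± 0.27. Every adjusted p was 1 by limma.

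For amifostine against PBS in hypothalamus 0 of the 70 passed, against 0% of 544 (1 with an unadjusted p below 0.05), and these arrays also differed in slide. The highest values among members detected on all 4 arrays were those of miR-665-3p (0.38 ± 0.17), miR-3070b-3p (0.27 ± 0.39), miR-667-3p (0.23 ± 0.21), miR-136-3p (0.21 ± 0.20), miR-1906 (0.20 ± 0.46) and miR-432 (0.18 ± 0.70). Signals of miR-665-3p were dim, at 6.71 to 12.7 units. On the PBS arrays it lay at the floor at 8 Gy and near it at 0 Gy, so its difference depends on the floor. The lowest were miR-539-5p (-0.30 ± 0.22), miR-485-5p (-0.27 ± 0.29), miR-487b-3p (-0.26 ± 0.28), miR-337-5p (-0.26 ± 0.26), miR-329-3p (-0.25 ± 0.29) and miR-337-3p (-0.25 ± 0.25). The dose effect was also set against that of marrow on the 8 matched arrays: 0 of 65 members passed, against 0% of 530 miRNAs (21 with an unadjusted p below 0.05). There miR-494-3p was at 0.83 ± 0.59 and miR-370-3p at 0.30 ± 0.33 (both adjusted p = 1, limma).

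The large SE of miR-494-3p and miR-432 in hypothalamus came from values that crossed between arms. miR-494-3p stood at 6.27 and 5.51 on the PBS arrays at 0 and 8 Gy and at 5.17 and 6.26 on the amifostine arrays. The PBS array was higher at 0 Gy and the amifostine array at 8 Gy. miR-432 stood at -3.15 and -4.03 on PBS and at -3.94 and -2.88 on amifostine, and miR-1906 at -0.72 and -1.35 on PBS and -1.13 and -0.53 on amifostine. By contrast miR-127-3p stood at 3.62 and 3.85 on PBS and at 3.75 and 3.38 on amifostine.

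Amifostine minus PBS at 8 Gy less the same difference at 0 Gy is a value with no test, since it rests on 1 array a cell. For the 10 members detected on all 4 hypothalamus arrays and at least 5 marrow arrays its median was 0.87, from -0.27 to 1.95, and it was above 1 in 5: miR-432 (1.95), miR-494-3p (1.86), miR-3072-5p (1.30), miR-1906 (1.23) and miR-3070b-3p (1.0). For the 53 members detected in hypothalamus only the median was -0.46, from -0.73 to 0.39, and it was above 1 in 0. Among miRNAs outside the cluster it was above 1 in 106 of 298 detected on all 4 hypothalamus and at least 5 marrow arrays, and in 0 of 82 detected on all 4 hypothalamus and no marrow array. Numbers of detected miRNAs moved with it, at 528 and 478 on PBS and 524 and 582 on amifostine at 0 and 8 Gy, as did the members' counts at 70, 65, 66 and 74. The part of slide, RNA quality or array sensitivity in this pattern was not tested.

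**Figure D5:**
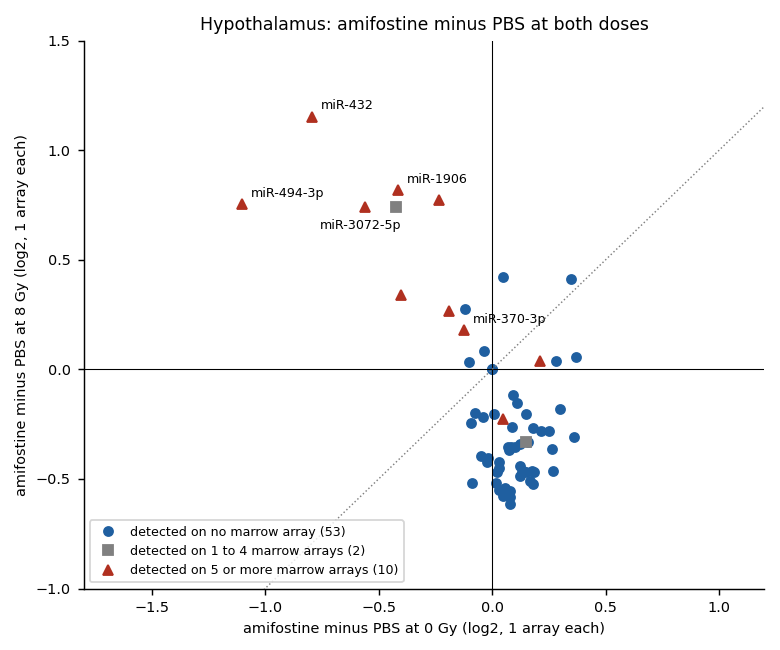
Amifostine minus PBS in hypothalamus at 8 Gy against the same difference at 0 Gy (log2, 1 array each) for the 65 members detected on all 4 arrays; red triangles are members detected on 5 or more marrow arrays, grey squares on 1 to 4, blue circles on none, and the dotted line marks equal differences. Members also found in marrow reach 1.95 above the line (miR-432), and the hypothalamus-only members lie between -0.73 and 0.39 from it, measured vertically.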

How the data were processed

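The authors deposited fluorescence intensity per spot from Agilent Feature Extraction 10.7.1.1, background-subtracted per the file headers, and a deposited log2 value per miRNA and array, used as an alternative. Positions, miRNA names and detection calls come from the scanner files. Processed signals were averaged per probe without outlier spots (4.42 to 5.27% of spots per array), then over probes, scaled so that the 75th percentile of those miRNAs that every array in a fit detected was 1, raised to a floor (the 5th percentile of detected signals, as a median across arrays) and taken to log2. Tests were run with limma 3.58.1 in R 4.3.3, two-sided, with Benjamini-Hochberg adjustment at 0.05 over all miRNAs tested. Some of the fits were also run on simulated data with equal normal noise and no floor, so that run does not cover floored values. P-values measure the spread between arrays; the number of arrays limits precision. The members and lists were chosen with earlier results of these data known. Named were miR-370-3p, miR-494-3p, all members tested in marrow, the 12 largest tissue differences with 1 sign in all 4 pairs, and the 6 highest and 6 lowest values in each hypothalamus test. The marker lists were neuronal, oligodendrocyte, erythroid, myeloid, lymphoid, pituitary and epithelial, choroid plexus, stromal and muscle miRNAs.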

Additional observations from a re-analysis of the deposited data

Results flagged for a closer look

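The 8 minus 0 Gy difference of miR-433-5p in marrow was -0.46 in the amifostine arm and between -0.03 and 0.05 in the other 4 arms. This single arm lay far from the rest: the gap was 0.84 of the whole range of the 5 arms. The value rests on the amifostine array at 0 Gy, where miR-433-5p had 10.68 units against 2.63 to 7.52 on the other marrow arrays; most of its scaled values lay at the floor. The 11 members tested in marrow were screened in this way, and chance flags about 1 in 20 such groups. That rate is for values clear of the floor. It does not apply to miR-433-5p, whose difference was 0 in both PBS arms because those arrays lay at the floor.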

How the results depend on the processing

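Alternatives changed 1 choice at a time, and settings that left out arrays kept the miRNAs tested. The tissue count of 52 members kept within 1.5 times under every alternative except a filter on detection on all 8 arrays, which tests only 6 members and called 2: miR-770-3p higher and miR-494-3p lower. It ran from 48 to 53 when single arrays were left out, was 47 with slide as a term and 46 on slide 1 alone. The sign of miR-370-3p between tissues turned to -0.92 with scaling over all miRNAs, and to -0.35, short of the threshold, with quantile normalization and the deposited table. In marrow at 8 Gy the single call fell to 0 with scaling over all miRNAs, no scaling, quantile normalization, normexp, outlier spots kept, an offset in place of the floor, scanner totals, the deposited table, detection on all arrays, no filter, no arm block, and slide 1 or slide 2 alone, and leaving out arrays or arms gave 0 to 2 (1 to 92 of all 371 miRNAs); without either nilestriol array or that arm it was 2 (miR-3544-3p and miR-1906). Vehicle arms alone gave 1 (miR-494-3p, lower) with the offset. For CBLB502 the count of 2 became 0 with no scaling, quantile normalization, scanner totals, the deposited table, no filter, and i.p. vehicle only, 1 with normexp and with detection on all arrays, and 5 on slide 1. Leaving out single arrays gave 0 to 2 there (0 to 85 of all miRNAs), 0 to 1 for nilestriol (0 to 93) and 0 for amifostine (0 to 1), where the offset gave 1 (miR-3070b-3p). Counting members on at least 5 marrow arrays by spots well above background gave 6 in place of 11, and 48 in place of 65 in hypothalamus. No array could be left out of the hypothalamus and vehicle fits, which then have no residual, nor of the tissue by dose fit, whose residual would come from 1 tissue.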
